A study of Mus musculus with 6 samples.

Results

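Integrins and laminins are the receptors and ligands through which heart cells hold on to the basement membrane, and the 34 genes described here code for 24 integrin subunits and 10 laminin chains. They were chosen by symbol (Itga, Itgb, Lama, Lamb or Lamc followed by a number or letters) with a summed count of at least 60 over the 6 libraries, out of 56691 gene rows. Without Itgbl1, 38 symbols match. Of these, Itgb2l (2 counts), Lamc3 (20), Itgad (42) and Itgae (53) fell below that minimum, and Itgae was the nearest outside it. Itgb7 was the nearest inside it, with exactly 60 counts. Itgbl1, which resembles integrin beta subunits but is no receptor subunit, was left out by rule. The rule uses no difference between groups, though the family was chosen with earlier results of these data known. All 34 genes passed the filter on low counts and were tested among 15429 genes.

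Bulk RNA was sequenced from primary cardiomyocytes of newborn mouse hearts. The cells carried an adenovirus of serotype 5 with the cardiac troponin T (cTNT) promoter, which is active in cardiomyocytes. In 3 libraries, labelled Ad-cTNT-HMGB2 and HMGB2 overexpression, the virus expressed HMGB2, a chromatin-bending protein of the high mobility group, and 3 control libraries, labelled Ad-cTNT vector, came from cells with the vector virus. The series title names cardiomyocyte proliferation and heart regeneration as the subject. The strain, any pooling of animals, the virus dose and the time of collection are not stated in the labels. Whether replicates came from separate cultures is not stated there either, so a p-value reflects only how these samples differ within a group, and that spread may be technical.

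A laminin is a cross-shaped trimer of an alpha, a beta and a gamma chain that assembles into the sheet of the basement membrane. An integrin is a receptor of an alpha and a beta subunit. The alpha subunit largely sets which matrix protein is bound, and the beta subunit's tail links to actin through talin, kindlin and other adaptors. In heart muscle the laminins around each myocyte are held by integrins of the beta 1 class and by the dystroglycan and sarcoglycan complex.

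Library totals lay between 12498215 and 16618365 counts. Hmgb2 itself had 175, 196 and 182 CPM (counts scaled by library total and by the trimmed mean of M values) in HMGB2 libraries, against 46.8, 44.8 and 36.3 CPM in vector libraries, a 4.33-fold difference. Its exons are 99.7% identical to Gm4739 over 633 bases, so reads may be shared. The summed CPM of 10 cardiomyocyte markers was 27750 to 28216 in HMGB2 libraries and 16905 to 18282 in vector libraries, and 8 of the 10 rose. Markers of other cells were also detected: fibroblast markers summed to 4433 to 4519 CPM in HMGB2 libraries and 4981 to 5052 CPM in vector libraries, with 2 of 10 lower. Endothelial markers summed to 2992 to 3095 CPM in HMGB2 libraries and 3482 to 3541 CPM in vector libraries, with 2 of 10 lower. Smooth muscle and pericyte markers summed to 1516 to 1541 CPM in HMGB2 libraries and 1524 to 1548 CPM in vector libraries, with 1 of 10 higher and 2 lower, and Schwann cell markers to 8.73 to 14.2 CPM with HMGB2 and 9.70 to 11.8 CPM with vector, with 1 of 3 tested higher. Of all genes tested, 14.4% were higher and 10.8% lower, 25.2% in either direction. Myh6, a cardiac myosin, had 6431 ± 834 CPM with HMGB2 and 3762 ± 467 CPM with vector (SD, n = 3 each), whereas Nppa, a natriuretic peptide, had 7423 ± 553 CPM and 6801 ± 773 CPM and did not pass the test. The cells are therefore a mixture, and in bulk RNA fewer cells of a type cannot be told apart from less RNA per cell. The part of this shift in the results on integrins and laminins was not tested.

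One library of each group stood apart for these genes. Over the 23 members with a mean count of at least 100, HMGB2 library 3 was lower than the mean of the other HMGB2 libraries for 18 (median log2 ratio -0.19), and vector library 1 was lower than the other vector libraries for 21 (median -0.23). The gap was widest for Lama5, at -0.73 in both. It was larger for genes with longer transcripts, with a Spearman rho between the log2 ratio and transcript length of -0.84 for HMGB2 library 3 and -0.66 for vector library 1. These are correlations across 23 genes, which are not independent replicates and share each library's depth. In the other 4 libraries rho lay between 0.35 and 0.78. Each ratio is taken over the other libraries of the group, so these values are not independent of those of the libraries that stood apart. Counts and calls without these libraries are therefore given beside the results, and their part in each result was not tested otherwise. Both libraries that stood apart were picked by the values of these same genes. Leaving them out narrows the spread within a group by that choice, so a smaller p-value there is no separate support for a difference.

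**Figure D1:**
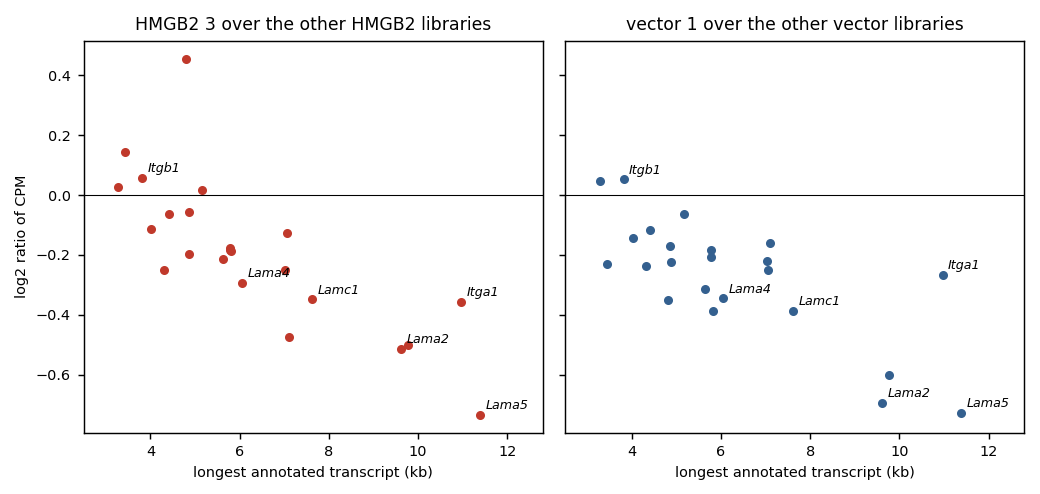
The 23 members with a mean count of at least 100 are plotted by the length of their longest annotated transcript (kb, x axis) and the log2 ratio of CPM in 1 library over the mean of the other libraries of its group (y axis), for HMGB2 library 3 (left) and vector library 1 (right). Itgb1 lies just above 0 in both, and the points go down to Lama5 at -0.73, the longest transcript.

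Of the 34 members, 8 changed with HMGB2, which is 23.5% of them, against 25.2% of all genes tested (edgeR quasi-likelihood test, Benjamini-Hochberg adjusted p under 0.05). Lamb3, Itgb4, Itga1, Lamb2 and Itgb5 rose, which is 14.7% of members against 14.4% of all genes. Itgb6, Itgax and Itga8 fell, which is 8.82% of members against 10.8% of all genes. These shares lie near the background. The median log2 fold change was -0.05 over the members and -0.0022 over all genes tested. The groups of libraries did not overlap for 16 members (47.1%, against 40.5% of all genes), 7 of them higher and 9 lower with HMGB2 (21.6% and 18.9% of all genes).

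Without vector library 1, 5 members were higher and 6 lower, where 16% of all genes were higher and 12.4% lower. Without that library and HMGB2 library 3 together 5 members were higher and 9 lower, where 20.9% of all genes were higher and 19.1% lower. The 5 that rose were the same genes in this last fit, while the lower set lost Itgax and gained Lamb1, Itga5, Itga6, Itga7, Itga9, Itgav and Itgb1. The number higher was 3 without vector library 2 or without vector library 3, and 2 without HMGB2 library 1 or without HMGB2 library 2. Lamb3, Itga8 and Itgb6 passed the test under all 18 alternatives, and no other member did.

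**Figure D2:**
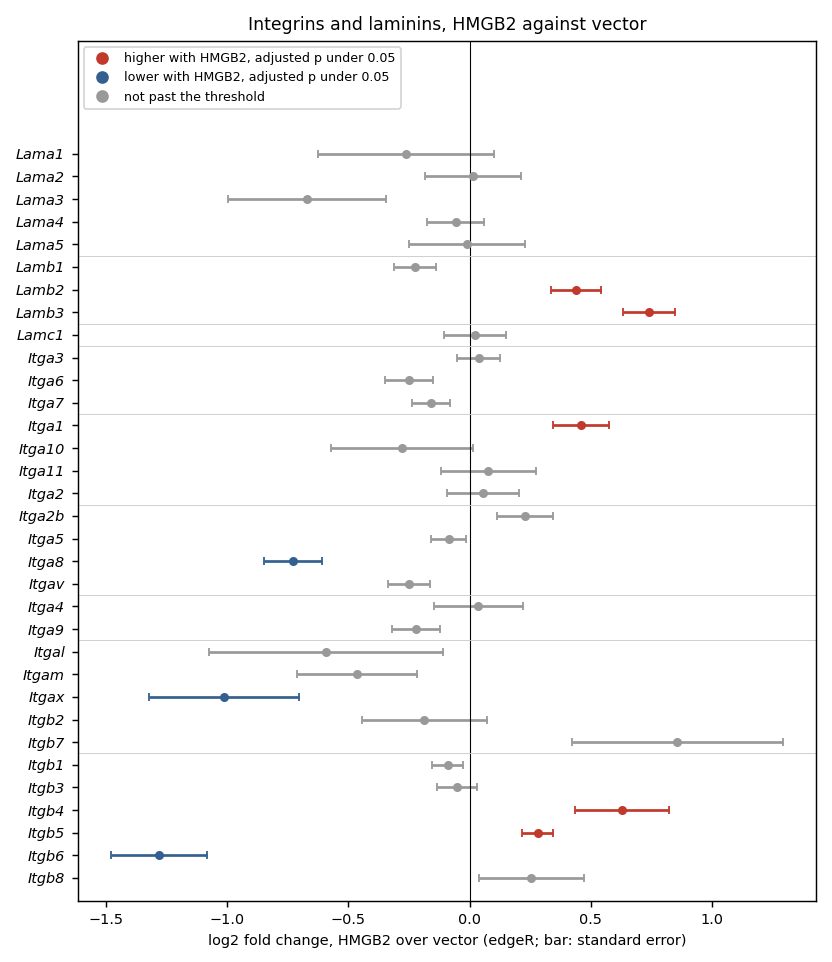
The log2 fold change of HMGB2 over vector (x axis, edgeR, bar: standard error) is shown for the members described in the text, from laminin chains at the top to integrin beta subunits at the bottom. Red points passed the threshold as higher, blue points as lower, and grey points did not pass it. Values run from -1.28 for Itgb6 to 0.86 for Itgb7, whose bar is wide.

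The laminin beta chains were the laminins that changed: Lamb2 and Lamb3 rose, while the more abundant Lamb1 was lower in each HMGB2 library without passing the test. Lamb1 codes for the beta chain of the common embryonic and vascular laminins. Lamb2 codes for the beta chain known from muscle, the neuromuscular junction and the kidney filter. Lamb3 codes for the beta chain of the laminin that anchors epithelial cells.

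Lamb3 (GRCm38 chromosome 1, 193207699 to 193343878, plus strand) had 23.1, 27.0 and 24.1 CPM in HMGB2 libraries, against 13.3, 15.6 and 15.5 CPM in vector libraries. The groups did not overlap. The means were 24.7 ± 2.05 CPM and 14.8 ± 1.29 CPM (SD, n = 3 each), a 1.67-fold difference (log2 0.74, SE 0.11, edgeR adjusted p = 0.00104).

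Lamb2 (chromosome 9, 108479736 to 108490530, plus strand) had 314, 305 and 267 CPM in HMGB2 libraries, against 187, 227 and 239 CPM in vector libraries. The lowest HMGB2 library lay above the highest vector library. The means were 295 ± 25.0 CPM with HMGB2 and 218 ± 27.0 CPM with vector (SD, n = 3 each), a 1.36-fold difference (log2 0.44, SE 0.10, edgeR adjusted p = 0.0138). The call was lost without HMGB2 library 1 (edgeR adjusted p = 0.0652) and without HMGB2 library 2 (0.0595).

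Lamb1 had 554, 562 and 492 CPM in HMGB2 libraries, against 569, 656 and 657 CPM in vector libraries, so all HMGB2 values lay below all vector values (log2 -0.23, SE 0.09, edgeR adjusted p = 0.0872). It passed the test without vector library 1 (edgeR adjusted p = 0.0117) and without both libraries that stood apart (3.37e-06). Those libraries were picked by the values of these same genes, so the smaller p-values are no separate support.

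Set against each other per length, the beta chains changed in proportion. FPKM (a count divided by gene length and library size) allows levels of different genes to be compared, and Lamb2 took 46.5%, 45.2% and 45.2% of the summed FPKM of the beta chains in HMGB2 libraries, against 34.2%, 35.3% and 36.4% in vector libraries. Lamb1 took 50.3%, 51.1% and 51.0% in HMGB2 libraries, against 63.6%, 62.5% and 61.4% in vector libraries. The shift was 10.4 percentage points up for Lamb2 and -11.7 for Lamb1, both with an exact two-sided permutation p of 0.1, the smallest that 3 against 3 libraries allow. The spread within a group was small beside the difference between groups, the libraries that stood apart included. The ratio of Lamb2 to Lamb1 FPKM was 0.898 ± 0.0224 with HMGB2 and 0.565 ± 0.0279 with vector (SD, n = 3 each). Lamb3 took 3.53% and 2.21%, and the summed FPKM of the beta chains, 107 ± 7.25 with HMGB2 and 100.4 ± 9.09 with vector, overlapped between groups (exact permutation p = 0.5).

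**Figure D3:**
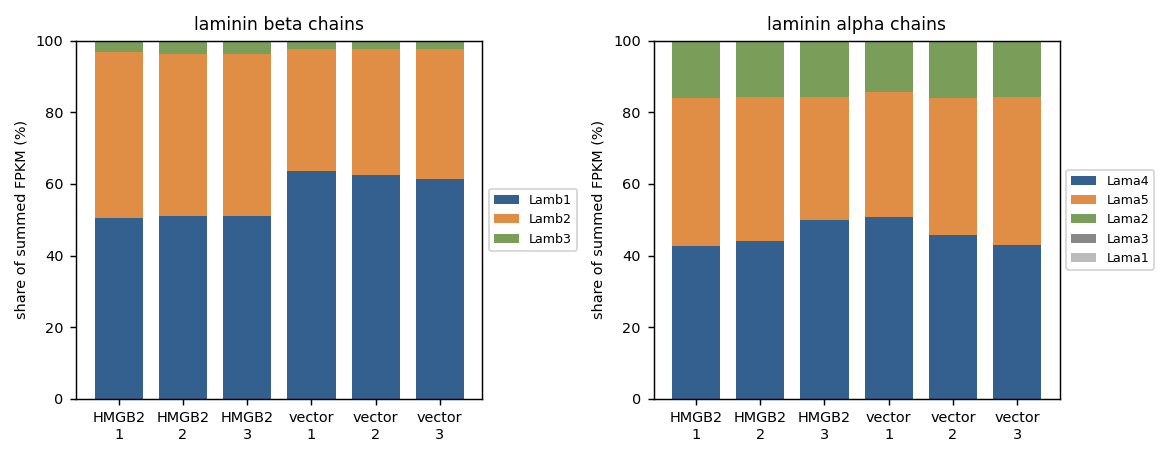
Stacked bars give each laminin chain's share of the summed FPKM of its class (%, y axis) in each library, HMGB2 libraries left of vector libraries, for beta chains (left panel) and alpha chains (right panel). The Lamb1 share is 50.3% to 51.1% in HMGB2 libraries and 61.4% to 63.6% in vector libraries, while the alpha shares overlap between groups.

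The sequence before the RefSeq transcription start is shown for these laminin genes, since they are the chains that rose, and for Itgb6 and Itga8 further on, which fell under every alternative. It is the 250 bases before the RefSeq start on GRCm38.p6, 5′ to 3′ on the gene's strand, with E-boxes (CANNTG, which reads the same on both strands) in capitals. The windows are chr1:193301744-193301993 on the plus strand for Lamb3, and chr9:108479612-108479861 on the plus strand for Lamb2. The GENCODE genes, whose positions are given above, begin elsewhere: the whole Lamb3 window lies inside the GENCODE gene, whose start is 94295 bases before the RefSeq start, and the last 126 bases of the Lamb2 window lie inside the GENCODE gene.
Lamb3: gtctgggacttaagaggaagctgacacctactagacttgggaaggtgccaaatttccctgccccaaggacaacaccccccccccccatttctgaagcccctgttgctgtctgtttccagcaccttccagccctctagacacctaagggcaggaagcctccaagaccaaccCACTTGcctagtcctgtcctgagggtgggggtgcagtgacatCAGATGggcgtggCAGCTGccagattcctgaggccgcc
Lamb2: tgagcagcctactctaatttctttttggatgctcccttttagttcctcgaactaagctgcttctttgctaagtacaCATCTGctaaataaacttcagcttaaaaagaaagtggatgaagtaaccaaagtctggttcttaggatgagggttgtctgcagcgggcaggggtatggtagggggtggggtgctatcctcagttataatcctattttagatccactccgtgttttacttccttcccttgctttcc
The Lamb3 window holds 3 E-boxes and is 58.8% G and C, and the Lamb2 window holds 1 and is 43.6% G and C. Of all 32851 RefSeq promoters of that length, 66.2% hold at least 1 E-box. Of the 23 members with a RefSeq promoter, 18 do. Neither window holds, on either strand, a TATA box (TATAAA, in 12.4% of all promoters), a CCAAT box (33.8%), a GC box (GGGCGG, in 32.7%), an AP-1 motif (TGANTCA, in 6.75%) or a TEAD motif (CATTCC, in 12.6%). A match is a description of letters only.

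No laminin alpha chain passed the test, 0 of 5 by edgeR and also 0 by DESeq2. By edgeR 25.2% of all genes tested passed, so a count of 0 among 5 genes says little about these chains as a group. There were 0 at an unadjusted edgeR p under 0.05, and the median log2 fold change was -0.06. Lama4, the chain of vessel and muscle laminins, had 396, 414 and 331 CPM in HMGB2 libraries, against 336, 436 and 416 CPM in vector libraries (log2 -0.06, SE 0.12, edgeR adjusted p = 0.765). Lama5, a chain of many adult basement membranes, had 363, 356 and 216 CPM in HMGB2 libraries, against 219, 344 and 379 CPM in vector libraries (log2 -0.01, SE 0.24). Lama2, the muscle chain whose loss causes congenital muscular dystrophy, had 201, 200.5 and 141 CPM in HMGB2 libraries, against 127, 206 and 204 CPM in vector libraries (log2 0.01, SE 0.20). In all 3 genes the lowest HMGB2 value was in library 3 and the lowest vector value in library 1, the libraries that stood apart, and the spread within a group exceeded the difference between groups. Lama1, the early embryonic chain, and Lama3, the epithelial chain, were low, at under 2 CPM in every library. Lama3 had 1.26, 0.966 and 0.667 CPM in HMGB2 libraries, against 1.52, 1.31 and 1.79 CPM in vector libraries, without overlap but without passing the test (log2 -0.67, SE 0.33, edgeR adjusted p = 0.17).

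Lamc1, the gamma chain of most laminins and the most abundant laminin transcript per length, did not pass the test. It had 1091, 1127 and 872 CPM in HMGB2 libraries, against 842, 1104 and 1095 CPM in vector libraries, with overlap and with the lowest value of each group again in the library that stood apart (log2 0.02, SE 0.13, edgeR adjusted p = 0.92). Per length it had 125 ± 15.9 FPKM with HMGB2 and 121 ± 17.2 FPKM with vector (SD, n = 3 each).

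Among integrin alpha subunits, Itga1 rose and Itga8 fell outside the leukocyte group. Itga1 codes for a receptor of collagen IV, the collagen of basement membranes. Itga8 codes for the partner of integrin beta 1 in the nephronectin receptor of mesenchymal cells.

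Itga1 (chromosome 13, 114953096 to 115101964) had 178, 176 and 138 CPM in HMGB2 libraries, against 105, 132 and 120 CPM in vector libraries. The groups did not overlap, but HMGB2 library 3 lay close above vector library 2. The means were 164 ± 22.3 CPM and 119 ± 13.6 CPM (SD, n = 3 each), a 1.38-fold difference (log2 0.46, SE 0.12, edgeR adjusted p = 0.0189). The call was lost without vector library 3 (edgeR adjusted p = 0.0566), HMGB2 library 1 (0.0833) or HMGB2 library 2 (0.0806). Its neighbour Itga2, another collagen receptor 20995 bases away, had 19.4, 21.9 and 14.9 CPM in HMGB2 libraries, against 16.7, 20.1 and 17.2 CPM in vector libraries (log2 0.05, SE 0.15), with overlap. The FPKM ratio of Itga1 to Itga2 was 3.39 ± 0.267 with HMGB2 and 2.54 ± 0.134 with vector (SD, n = 3 each, exact permutation p = 0.1). That is the smallest p that 3 against 3 libraries allow. The ratio comes from the same libraries as the Itga1 call, so it is no separate support. The cartilage collagen receptor Itga10 and the fibroblast collagen receptor Itga11 were low, at 1.08 to 6.41 CPM with HMGB2 and 1.28 to 6.73 CPM with vector, and neither passed. Of the exon bases of Itga10, 33.5% are shared with Gm42957.

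Itga8 (chromosome 2, 12106632 to 12301922, minus strand) had 48.7, 48.3 and 42.6 CPM in HMGB2 libraries, against 63.9, 89.0 and 78.1 CPM in vector libraries. Every HMGB2 value lay below every vector value. The means were 46.5 ± 3.42 CPM and 77.0 ± 12.6 CPM (SD, n = 3 each), a 1.65-fold lower level with HMGB2 (log2 -0.73, SE 0.12, edgeR adjusted p = 0.00203). Of its exon bases, 5.05% overlap E030013I19Rik on the opposite strand, and the strand setting of the counting is not known. The summed fibroblast markers were lower in the same libraries, as given above, with a median log2 fold change of -0.11. Of the 10 fibroblast markers 2 passed the test, as lower. That is 20%, where 10.8% of all genes tested were lower and 25.2% passed in either direction. Their part in the Itga8 result was not tested.

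The other RGD-binding subunits, named for the tripeptide they recognise, did not pass the test with all libraries. Itga5, the fibronectin receptor subunit, took the largest share of integrin alpha FPKM, 42.7% with HMGB2 and 41.9% with vector. It had 491, 488 and 469 CPM in HMGB2 libraries, against 485, 504 and 548 CPM in vector libraries, with overlap (log2 -0.09, SE 0.07). Itgav, the partner of beta 3, 5, 6 and 8, had 220, 222 and 203 CPM in HMGB2 libraries, against 227, 271 and 269 CPM in vector libraries, without overlap (log2 -0.25, SE 0.09, edgeR adjusted p = 0.0648). It passed without vector library 1 (edgeR adjusted p = 0.00453). Itga2b, the platelet subunit, had 11.8, 12.1 and 13.2 CPM in HMGB2 libraries, against 9.46, 11.2 and 11.0 CPM in vector libraries (log2 0.23, SE 0.12, edgeR adjusted p = 0.193). Platelet and megakaryocyte markers summed to 7.39 to 10.5 CPM with HMGB2 and 8.94 to 10.7 CPM with vector. Of the 4 tested none passed (0 by edgeR), where 25.2% of all genes tested did.

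Of the laminin-binding alpha subunits none passed the test, 0 of 3 by edgeR and 0 by DESeq2. By edgeR 25.2% of all genes tested passed, so a count of 0 among 3 genes says little about this class. Of the 3, 1, Itga6, had an unadjusted edgeR p under 0.05. Itga7, the main laminin receptor of muscle, had 137, 142 and 129 CPM in HMGB2 libraries, against 142, 150 and 163 CPM in vector libraries (log2 -0.16, SE 0.08, edgeR adjusted p = 0.179). Itga6, which pairs with beta 1 or beta 4, had 269, 268 and 226 CPM in HMGB2 libraries, against 270, 326 and 311 CPM in vector libraries, without overlap, though HMGB2 libraries 1 and 2 lay just below vector library 1 (log2 -0.25, SE 0.10, edgeR adjusted p = 0.0937). Without vector library 1 Itga6 passed (edgeR adjusted p = 0.0129). Itga3, which binds laminins of epithelia and vessels, had 227, 203 and 188 CPM in HMGB2 libraries, against 185, 202 and 214 CPM in vector libraries (log2 0.04, SE 0.09). Itga9, a tenascin receptor, had 54.3, 55.0 and 45.9 CPM in HMGB2 libraries, against 54.3, 64.9 and 61.5 CPM in vector libraries (log2 -0.22, SE 0.10, edgeR adjusted p = 0.141, and 0.0349 without vector library 1). Itga4, which binds fibronectin and the vascular adhesion protein Vcam1, overlapped between groups (log2 0.04, SE 0.18).

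Among beta subunits, Itgb5 and Itgb4 rose and Itgb6 fell, while Itgb1, by far the most abundant member, did not pass the test. Itgb1 pairs with most of the alpha subunits above and carries 88.8% of integrin beta FPKM with HMGB2 and 90.2% with vector. It had 2305, 2305 and 2400 CPM in HMGB2 libraries, against 2548, 2473 and 2442 CPM in vector libraries, without overlap (log2 -0.09, SE 0.06, edgeR adjusted p = 0.354). Per length it had 576 ± 18.05 FPKM and 604 ± 16.4 FPKM (SD, n = 3 each), above Lamc1, the second member. Without both libraries that stood apart, which were picked by the values of these same genes, it passed as lower (edgeR adjusted p = 0.0104).

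Itgb5 (chromosome 16, 33829665 to 33949338) codes for the beta subunit of an Itgav-containing vitronectin receptor. It had 158, 158 and 161 CPM in HMGB2 libraries, against 134, 130 and 129 CPM in vector libraries. The groups were each tight and far apart relative to their spread. The means were 159 ± 1.63 CPM and 131 ± 2.65 CPM (SD, n = 3 each), a 1.21-fold difference (log2 0.28, SE 0.06, edgeR adjusted p = 0.011), and the call was lost without vector library 2 (edgeR adjusted p = 0.0511). Itgb5 is 99.7% identical to Gm38317 over 343 bases. Its share of integrin beta FPKM was 6.98%, 6.96% and 6.87% in HMGB2 libraries, against 5.47%, 5.44% and 5.45% in vector libraries (exact permutation p = 0.1). A smaller p is not possible with 3 against 3 libraries. Itgb3, which pairs with the same alpha subunit and with Itga2b, had 147, 148 and 131 CPM in HMGB2 libraries, against 135, 150 and 156 CPM in vector libraries, and overlapped.

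Itgb6 (chromosome 2, 60598292 to 60722643, minus strand) codes for the epithelial partner of Itgav that activates latent TGF-beta. It had 3.73, 4.76 and 5.82 CPM in HMGB2 libraries, against 9.78, 14.0 and 10.95 CPM in vector libraries. The highest HMGB2 value was well below the lowest vector value. The means were 4.77 ± 1.05 CPM and 11.6 ± 2.19 CPM (SD, n = 3 each), a 2.43-fold lower level with HMGB2 (log2 -1.28, SE 0.20, edgeR adjusted p = 0.00137), the largest fold change of a member that passed. Itgb8, the other partner of Itgav that activates TGF-beta, had 3.97, 4.14 and 3.03 CPM in HMGB2 libraries, against 2.49, 3.65 and 3.15 CPM in vector libraries (log2 0.25, SE 0.22), with overlap. Epicardial markers, which include epithelial genes, summed to 150 to 159 CPM with HMGB2 and 181 to 200.3 CPM with vector. The list did not fall as a whole: the median log2 fold change was 0.02, with 4 genes above 0 and 3 below. Of these 7, 2 fell, which is 28.6% against 10.8% of all genes tested. Among them was the keratin Krt19 with 23.3 ± 1.83 CPM and 61.4 ± 6.99 CPM (SD, n = 3 each), while Msln had 68.1 ± 1.64 CPM and 67.3 ± 4.87 CPM. The part of such cells in the Itgb6 result was not tested.

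The windows before the RefSeq starts of the genes that fell are chr2:60722604-60722853 on the minus strand for Itgb6 and chr2:12301945-12302194 on the minus strand for Itga8, with E-boxes in capitals as before.
Itgb6: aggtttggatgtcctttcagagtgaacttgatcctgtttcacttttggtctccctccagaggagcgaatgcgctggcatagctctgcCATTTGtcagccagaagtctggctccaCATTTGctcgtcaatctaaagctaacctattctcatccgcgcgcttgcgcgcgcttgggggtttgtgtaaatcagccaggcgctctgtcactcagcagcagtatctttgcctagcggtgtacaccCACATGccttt
Itga8: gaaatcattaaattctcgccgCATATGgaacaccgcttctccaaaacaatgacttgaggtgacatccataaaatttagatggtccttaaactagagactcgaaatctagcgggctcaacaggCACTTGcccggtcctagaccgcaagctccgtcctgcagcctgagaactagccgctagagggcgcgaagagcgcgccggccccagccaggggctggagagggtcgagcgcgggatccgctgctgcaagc
The Itgb6 window holds 3 E-boxes and is 52.0% G and C. Its last 40 bases, the last E-box among them, lie inside the GENCODE gene. The Itga8 window holds 2 E-boxes and is 56.4% G and C, and neither holds any of the other 5 motifs searched.

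Itgb4 (chromosome 11, 115974709 to 116008412) codes for the hemidesmosome subunit that pairs with Itga6 to hold epithelial laminin. It had 5.29, 5.38 and 3.94 CPM in HMGB2 libraries, against 3.37, 3.21 and 2.86 CPM in vector libraries. The groups did not overlap. The means were 4.87 ± 0.807 CPM and 3.15 ± 0.259 CPM (SD, n = 3 each), a 1.55-fold difference (log2 0.63, SE 0.19, edgeR adjusted p = 0.0401). The call was lost without vector library 2 (edgeR adjusted p = 0.0976) or 3 (0.122), and without HMGB2 library 1 (0.136) or 2 (0.13). DESeq2 gave an adjusted p of 0.0741. Of its exon bases, 7.66% overlap B230344G16Rik on the opposite strand.

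**Figure D4:**
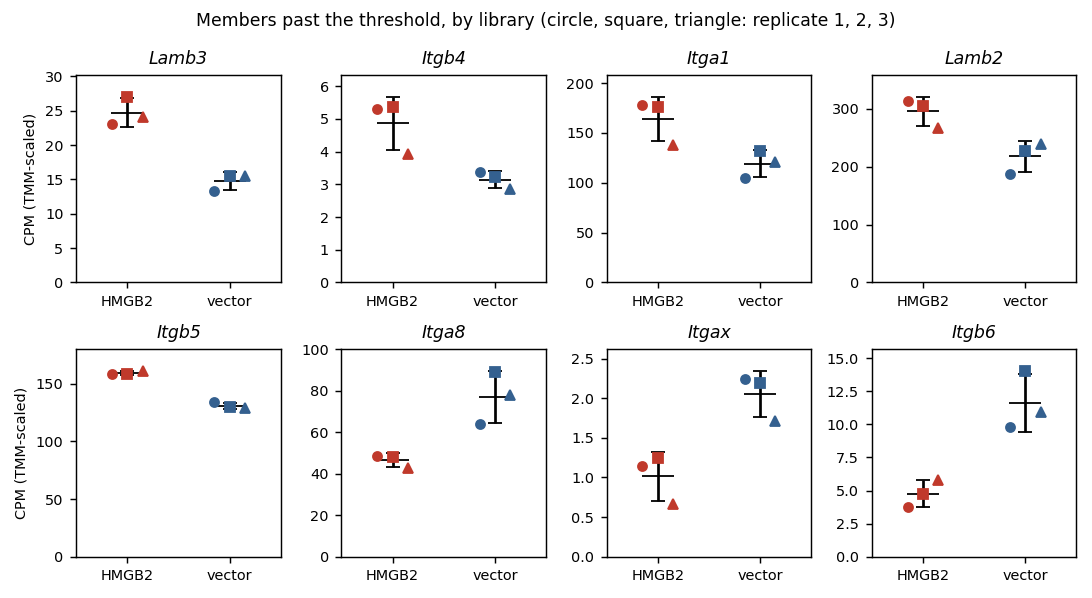
CPM per library (y axis, from 0) is shown for the 8 members that passed the threshold, HMGB2 libraries left and vector libraries right. Circles, squares and triangles are replicates 1, 2 and 3, and black bars are the mean and SD. The groups do not overlap in any panel, and Itgb5 has the smallest SD relative to its mean.

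Leukocyte integrins were low, at under 7 CPM in every library, and 1 of 5 passed, which is 20% against 25.2% of all genes tested. Itgax, which codes for CD11c of dendritic cells and macrophages, had 1.14, 1.24 and 0.667 CPM in HMGB2 libraries, against 2.25, 2.19 and 1.72 CPM in vector libraries, from 11 to 30 counts a library. The HMGB2 values all lay below the vector values, at 1.02 ± 0.307 CPM and 2.05 ± 0.29 CPM (SD, n = 3 each, log2 -1.01, SE 0.31, edgeR adjusted p = 0.0397). The call was lost without vector library 1 (edgeR adjusted p = 0.0767), 2 (0.12) or 3 (0.0602) and without HMGB2 library 1 (0.0913), 2 (0.0671) or 3 (0.113), and DESeq2 with all libraries gave an adjusted p of 0.0535. Itgax is 95.0% identical to Itgad over 758 bases, so reads may be split between them. Itgam, the macrophage subunit 11055 bases away, had 1.98, 2.0 and 1.39 CPM in HMGB2 libraries, against 2.81, 2.26 and 2.36 CPM in vector libraries (log2 -0.47, SE 0.25, edgeR adjusted p = 0.208), and shares 68.7% of its exon bases with Gm49368. Their shared partner Itgb2 overlapped between groups (log2 -0.19, SE 0.26), as did the lymphocyte subunits Itgal (log2 -0.59, SE 0.48) and Itgb7 (log2 0.86, SE 0.43). Macrophage markers summed to 78.0 to 90.4 CPM with HMGB2 and 102 to 136 CPM with vector, with 3 of 9 tested markers lower (33.3%, against 10.8% of all genes tested), and lymphocyte markers to 0.485 to 0.897 CPM and 1.39 to 2.22 CPM, with Ms4a1 at 0. Their part in these values was not tested.

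Genes of the wider adhesion pathway were counted in 4 lists. Of 22 basement membrane and other laminin partners, 10 rose and 1 fell, which is 45.5% higher and 4.55% lower, against 14.4% and 10.8% of all genes tested. The median log2 fold change was 0.32 in the list and -0.0022 over all genes. The list joins matrix genes of the basement membrane with the dystroglycan and sarcoglycan complex of the cell membrane. Its summed CPM overlapped between groups, at 11834.9 to 14746.5 in HMGB2 libraries and 12168.9 to 15852.4 in vector libraries. Among the 10 were the sarcoglycan genes Sgca, Sgcb and Sgcd, which brace the laminin receptor dystroglycan in muscle membranes, and Dag1, dystroglycan itself. Sgcb, Sgcd and Dag1 were chosen for mention after their values were seen. Sgca had 21.7, 20.1 and 22.1 CPM in HMGB2 libraries, against 10.8, 9.57 and 9.80 CPM in vector libraries, with means of 21.3 ± 1.09 CPM and 10.1 ± 0.669 CPM (SD, n = 3 each, log2 1.08, SE 0.10, edgeR adjusted p = 8.11e-05). Sspn, sarcospan of the same complex, had 69.4 ± 7.99 CPM and 35.0 ± 2.84 CPM (SD, n = 3 each, edgeR adjusted p = 0.000145). Agrn, agrin, a heparan sulfate proteoglycan that bridges laminin and dystroglycan, had 362 ± 41.6 CPM and 188 ± 23.2 CPM (SD, n = 3 each, edgeR adjusted p = 0.000322). The groups did not overlap for any of Sgca, Sspn and Agrn. These were named for their small p-values, so that is no separate support. In the list the groups did not overlap for 14 of 22 genes (63.6%), against 40.5% of all genes tested. Cardiomyocyte markers, as given above, were higher in the same libraries, and their part in this list was not tested.

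Of 23 tested integrin ligands other than laminins, 1 rose and 7 fell, which is 4.35% higher and 30.4% lower, against 14.4% and 10.8% of all genes tested. The median log2 fold change was -0.11. Ccn1, a matricellular ligand of several integrins, had 360, 350 and 379 CPM in HMGB2 libraries, against 679, 592 and 601 CPM in vector libraries (log2 -0.78, SE 0.08, edgeR adjusted p = 0.000113). Its relative Ccn2 had 820 ± 56.4 CPM with HMGB2 and 1233 ± 125 CPM with vector (SD, n = 3 each, edgeR adjusted p = 0.00144). Icam1, a ligand of Itgb2 integrins, had 111 ± 1.59 CPM and 159 ± 4.58 CPM (SD, n = 3 each, edgeR adjusted p = 0.000432), and Emilin1, an elastic fibre protein bound by Itga4 and Itga9 integrins, had 173 ± 4.24 CPM and 235 ± 3.71 CPM (SD, n = 3 each, edgeR adjusted p = 0.00107). The gene that rose was Fbn2, fibrillin 2, with a log2 fold change of 1.07, chosen for mention after its value was seen.

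Of 27 tested adaptors and actin linkers, 1 rose and 5 fell. That is 22.2% of the list, near the 25.2% of all genes tested, with 3.70% higher and 18.5% lower against 14.4% and 10.8% of all genes. The median log2 fold change was -0.08. Flnc, the muscle filamin, had 306, 315 and 216 CPM in HMGB2 libraries, against 644, 980 and 1041 CPM in vector libraries, a 3.19-fold lower level with HMGB2 (log2 -1.67, SE 0.20, edgeR adjusted p = 0.000387). Itgb1bp2, melusin, a muscle protein that binds the integrin beta 1 tail, went the other way, with 26.8, 26.3 and 27.9 CPM in HMGB2 libraries, against 20.2, 19.9 and 20.2 CPM in vector libraries (log2 0.43, SE 0.08, edgeR adjusted p = 0.0051). The focal adhesion proteins Tns3 and Pxn both fell, each with a log2 fold change of -0.31 (edgeR adjusted p = 0.0127 for Tns3 and 0.0157 for Pxn). The Tns3 call was lost without vector library 2 (edgeR adjusted p = 0.0501), vector library 3 (0.0545) or HMGB2 library 2 (0.0581). The Pxn call was lost without vector library 2 (edgeR adjusted p = 0.0654), vector library 3 (0.0623), HMGB2 library 1 (0.0717) or HMGB2 library 3 (0.0508). The number of this list that fell was 1 without vector library 2 or without vector library 3, 2 without any 1 of the HMGB2 libraries, and 11 without both libraries that stood apart.

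Of 24 adhesion kinases and signalling proteins, 3 rose and 4 fell. That is 29.2% of the list, near the 25.2% of all genes tested, with 12.5% higher and 16.7% lower against 14.4% and 10.8% of all genes. The median log2 fold change was -0.01. Ptk2b, the kinase Pyk2, had 32.8, 33.7 and 33.8 CPM in HMGB2 libraries, against 17.6, 17.9 and 18.6 CPM in vector libraries (log2 0.89, SE 0.08, edgeR adjusted p = 6.81e-05). Arhgef6, an exchange factor for Rac, had 57.8 ± 7.43 CPM with HMGB2 and 35.9 ± 2.19 CPM with vector (SD, n = 3 each, edgeR adjusted p = 0.00132). Nedd9, a docking protein of these kinases, had 64.8 ± 3.76 CPM and 91.9 ± 0.367 CPM (SD, n = 3 each, edgeR adjusted p = 0.000871). Fyn, a Src family kinase, had 64.7 ± 2.55 CPM and 86.1 ± 6.66 CPM (SD, n = 3 each, edgeR adjusted p = 0.00489).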

How the data were processed

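RNA sequencing data of 6 libraries were used as deposited. Per the labels' protocols, TRIzol served for total RNA and the VAHTS Universal V5 kit for libraries. StringTie 1.3.3b, HTSeq 0.6.1, HISAT2 2.2.1 and FastQC 0.10.1 and the build mm10 come from the submitters' processing notes, without a role for each. The authors deposited raw counts per gene and FPKM values for the same genes and libraries. The strand setting is not given in the sources used here, so overlapping genes cannot be separated. Table columns were matched to samples by group abbreviation and replicate number.

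Counts were filtered with filterByExpr (minimum count 10, minimum total 15), scaled by TMM and tested with the robust quasi-likelihood test of edgeR 4.0.16 in R 4.3.3, with the group as the only term and Benjamini-Hochberg adjustment over 15429 genes (threshold 0.05). The procedure was tested on simulated data. Alternatives used DESeq2 1.42.0 and limma 3.58.1. FPKM values served for levels between genes and for shares, tested with an exact two-sided permutation test. In 2159 genes with at least 20 FPKM in every library, FPKM, counts and totals implied the same length in all libraries (coefficient of variation at most 0.0199%). No pair of replicates agreed within sampling noise (chi-square per degree of freedom at least 1.99).

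Positions are from GENCODE M21 on GRCm38, found by Ensembl identifier, because only 1472 of 52073 matched table rows have the same start and end there. The rule for names takes every member and, of each pathway list up to 4 genes past the threshold with the smallest p; Dag1, Sgcb, Sgcd and Fbn2 were named besides, after their values were seen. A few genes that the rules name are not reported here. Members and lists were chosen with earlier results of these data known.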

Additional observations from a re-analysis of the deposited data

How the results depend on the processing

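The 8 called members kept their direction under all 18 alternatives. The number of members higher, 5, was 3 with FPKM values in limma (pseudocount 1 or 0.1), 2 without a filter on FPKM and 1 with the replicate block; leaving out 1 library gave 2 to 5. The number lower, 3, was 9 without vector library 1 and HMGB2 library 3 together, and 2 to 6 leaving out 1 library. Over all genes, 2224 higher became 1387 (FPKM, no filter) and 1459 (replicate block), with 1567 to 2526 leaving out 1 library. For 1662 lower, FPKM gave 962 (pseudocount 1), 990 (0.1) and 671 (no filter), the pair left out 2986, the replicate block 754, and leaving out 1 library 866 to 1960. The causes were not tested.

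The labels do not say that replicate numbers pair the libraries. The correlations of deviations between same-numbered libraries were -0.40, 0.29 and -0.46. Between differently numbered libraries they ran from -0.41 to 0.62, the highest for HMGB2 library 3 and vector library 1, the libraries that stood apart. With so few libraries, these values cannot show whether the numbers pair. Under the replicate block only Lamb3, Itga8 and Itgb6 of the members stayed past the threshold.

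Shares from CPM in place of FPKM differed by 9.20 points for Lamb2, -10.4 for Lamb1 and 1.29 for Itgb5. Leaving out 1 library gave 9.80 to 10.9 for Lamb2, -12.2 to -11.1 for Lamb1, 1.47 to 1.52 for Itgb5, -1.71 to -1.23 for Itgb1, -1.17 to 2.54 for Lama5 and -3.10 to 1.18 for Lama4.

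The log2 sign of Lama5 turned with library totals only (0.0084) and FPKM (0.0095 with pseudocount 1, with or without the filter, 0.0099 with 0.1), and that of Lama2 without the pair (-0.028). Leaving out 1 library, sign turned for uncalled members: Lama2 (-0.18 to 0.17), Lama4 (-0.16 to 0.035), Lama5 (-0.21 to 0.20), Lamc1 (-0.095 to 0.13), Itga3 (-0.032 to 0.10), Itga11 (-0.081 to 0.25), Itga2 (-0.068 to 0.20), Itga4 (-0.14 to 0.19), Itgb2 (-0.47 to 0.045) and Itgb3 (-0.11 to 0.0073). Itgax, with 11 to 30 counts a library, and the other leukocyte subunits are limited by depth, and which difference could be detected was not tested.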
